A study of Mus musculus with 9 samples.

Results

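Posterior Hox genes were measured in 3 pools of mouse motor neurons: Hoxa9, Hoxa10 and Hoxa11 of the HoxA cluster, Hoxc10 of the HoxC cluster, and Hoxd8, Hoxd9, Hoxd10 and Hoxd11 of the HoxD cluster. They were chosen by symbol, as every probe set that the platform annotation gives to one of these 8 genes alone. This gave 11 probe sets of 45037 on the array that are not controls, and 8 genes of 18193 that the annotation names. The 3 pools came from 3 wild-type male C57BL/6J mice at postnatal day 7, which received no treatment, and each pool was measured on 3 arrays. L5 stands for motor neurons of the fifth lumbar segment, which supply the hindlimb. DL stands for the dorsolateral nucleus, taken at lumbar level 6, which supplies pelvic muscles. OMN stands for the oculomotor nucleus of the midbrain, which moves the eye. Motor neurons were cut by laser from 12 µm cresyl violet sections, about 200 per pool and animal, and at least 1.5 ng of their RNA was amplified and hybridised to Affymetrix Mouse Genome 430 2.0 arrays.

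Hox genes encode homeodomain transcription factors that give cells along the body axis their position. Within a cluster, genes nearer the 5′ end are switched on later and further towards the tail, and genes at the same place in different clusters are paralogs with the same group number. In the lumbar cord, proteins of the later groups, foremost the Hox10 paralogs, direct motor neurons towards a limb-supplying fate and, together with Foxp1, sort them into pools, while the midbrain lies in front of the region in which Hox genes are used. The comparison of L5 and DL with OMN therefore sets spinal against cranial motor neurons, and that of L5 with DL sets neighbouring levels of the cord and different muscles against each other.

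All arrays had been scaled to the same mean, taken after 2% of values at each end are set aside. A probe set counted as above noise where it exceeded 18.3, the maximum over the arrays of 27 controls for bacterial transcripts that were taken as not added. The median intensity of an array was 32.0 to 34.3 in L5, 26.4 to 29.7 in DL and 33.6 to 35.4 in OMN. The Gapdh 3′ to 5′ control ratio, which increases as RNA breaks down, was 2.45 to 2.53 in L5, 3.27, 2.44 and 3.75 on DL arrays 1, 2 and 3, and 2.33 to 2.67 in OMN. Of the motor neuron markers, Slc5a7, the choline transporter, lay between 2863.7 and 4979.2 on all 9 arrays, whereas Chat, the enzyme that makes acetylcholine, lay between 1.2 and 24.5, close to noise in each pool. Chat had only 1 probe set. The other markers measured were Slc18a3 at 773.8 to 3574.4, Prph at 4570.6 to 10375.7, Ache at 589.8 to 1309.7, Isl1 at 494.7 to 3127.5 and Isl2 at 4.6 to 145.3. Tbx20, an oculomotor marker, was 309.8 to 538.9 in OMN and at most 24.9 in the spinal pools, while Phox2a did not exceed 30.0 in any pool. Where bulk samples of this kind differ, fewer cells that express a gene and less RNA per cell cannot be told apart. The labels say that each animal gave all 3 pools but not that equal sample numbers mean the same animal, so p-values measure the spread between these samples.

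All 8 genes were bright in both spinal pools and near noise in OMN. In L5, 10 of the 11 probe sets were higher than in OMN, against a background of 0.437% of all probe sets called in that direction. In DL, 9 of the 11 were higher than in OMN, against 0.750% of all probe sets. Every gene was called in both comparisons by at least 1 of its probe sets, with limma and a Benjamini-Hochberg adjusted p under 0.05 over all 45037 probe sets. The median log2 difference over the 11 probe sets was 5.08 for L5 minus OMN, where all probe sets had a median of -0.0018, and 5.06 for DL minus OMN, where the median of all was -0.064. Because both comparisons use the same OMN arrays, they are not independent of each other.

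Ranges of the 3 arrays did not overlap between L5 and OMN for 11 of the 11 probe sets, the Hoxa10 probe set that stayed at noise included, while 11.6% of all probe sets lay wholly higher in L5. Between DL and OMN this held for 10 of the 11, against 7.17%. Levels of different probe sets are not compared here, since probes differ in how strongly they bind.

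**Figure D1:**
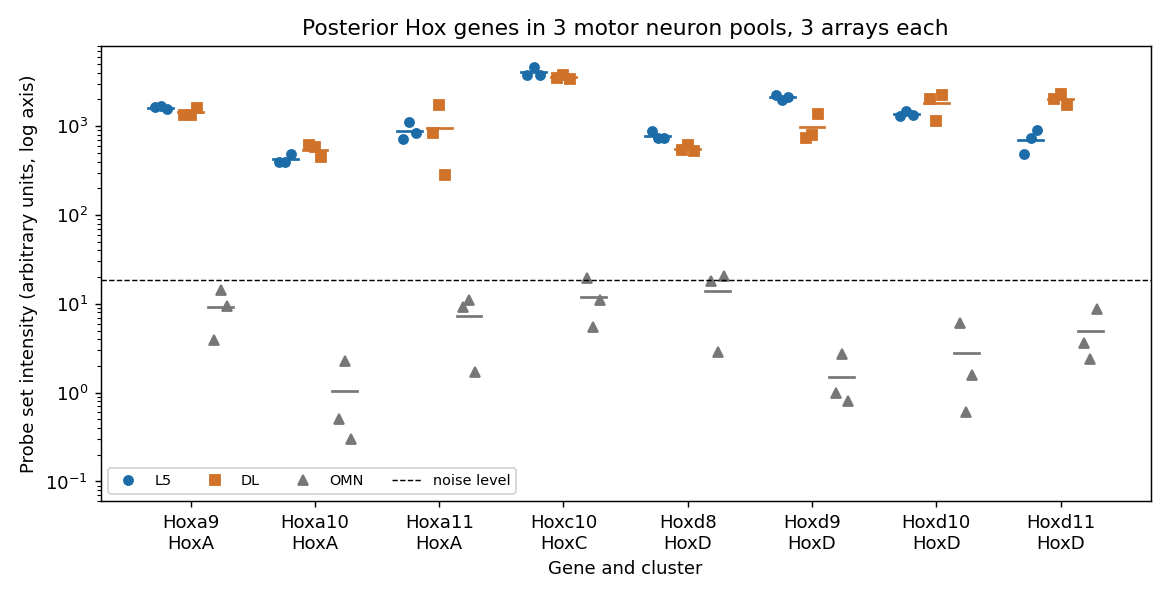
Probe set intensity, in arbitrary units on a log axis, of the brightest probe set of each gene in L5 (circles), DL (squares) and OMN (triangles). Each point is 1 array, short lines are means of 3 arrays, and the dashed line is the noise level of 18.3. All L5 and DL points lie far above the line, and the OMN points lie below it except 1 for Hoxc10 and 1 for Hoxd8.

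In the HoxA cluster, Hoxa9 belongs to the Hox9 paralogs, which take part in laying out motor columns. Its brighter probe set, 1455626_at, read 1628.0, 1670.0 and 1556.1 on the L5 arrays, 1327.7, 1344.9 and 1615.6 on the DL arrays, and 3.9, 14.3 and 9.4 on the OMN arrays. No OMN array passed the noise level. As the OMN level is only a bound, L5 was at least 88.4-fold higher than OMN (log2 difference 6.04 ± 0.21 SE, limma adjusted p = 0.000179), and DL at least 77.8-fold higher (5.86 ± 0.21, adjusted p = 0.000220). Here and for the genes below, these bounds set the geometric mean of the bright pool, without an added constant, against the noise level. They hold for pool means and not for each array. The log2 differences in brackets are limma estimates on intensities with a constant added before the logarithm, which understates changes of dim genes. Bounds and bracketed values therefore do not convert into each other, and a bracketed value can correspond to a smaller fold change than the bound.

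Hoxa9's dimmer probe set, 1421579_at, spread far more. It read 131.1, 174.4 and 344.2 in L5, 277.2, 57.2 and 93.8 in DL, and 13.8, 1.2 and 17.6 in OMN. Both spinal pools stayed wholly above OMN, but the arrays within a pool differed by up to 4.85-fold in DL. L5 was called higher than OMN (3.06 ± 0.48 SE, limma adjusted p = 0.0393), and DL was not (2.37 ± 0.48, adjusted p = 0.0627). The L5 call was kept in 10 of 19 other settings. Across the 6 spinal arrays the pair of Hoxa9 probe sets hardly followed each other (Pearson r = 0.07, a description over 6 arrays).

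Hoxa10, a Hox10 paralog that promotes lumbar motor neuron identity, was read by 1431475_a_at at 399.6, 396.7 and 490.7 in L5, at 605.8, 587.0 and 444.3 in DL, and at 0.5, 2.3 and 0.3 in OMN. The spinal pools overlapped each other and both lay clear of OMN. L5 was at least 23.3-fold higher than OMN (4.70 ± 0.21 SE, limma adjusted p = 0.000334), and DL at least 29.5-fold higher (5.03 ± 0.21, adjusted p = 0.000226). The other Hoxa10 probe set, 1446408_at, did not exceed 3.4 on any array, so it gives no level in any pool.

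Hoxa11, which with Hoxd11 is best known for shaping the forearm and kidney, read 711.1, 1110.4 and 848.0 in L5, 840.4, 1739.3 and 279.6 in DL, and 9.1, 11 and 1.7 in OMN (1420414_at). Among the brightest probe sets of the 8 genes it varied most within a spinal pool, by 6.22-fold across the DL arrays. It was nevertheless at least 47.8-fold higher in L5 than in OMN (5.28 ± 0.42 SE, limma adjusted p = 0.00327) and at least 40.6-fold higher in DL than in OMN (5.06 ± 0.42, adjusted p = 0.00325). With OMN and DL alone in the fit, the DL call was lost (adjusted p = 0.0532).

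An antisense transcript, Hoxa11os, overlaps Hoxa11 in the RefSeq table, and which strand each probe set reads was not checked. Hoxa11os, looked up after its values had been seen, read 37.1, 56.6 and 59.2 in L5, 52.5, 44.3 and 43.8 in DL, and 5.0, 10.7 and 1.5 in OMN with its brighter probe set. Its DL arrays lay close together, whereas those of Hoxa11 did not. It was called higher in L5 than in OMN (1.63, limma adjusted p = 0.0314) and in DL than in OMN (1.55, adjusted p = 0.0249).

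Hoxc10 was the only HoxC gene among the 8. It is a Hox10 paralog and a marker of the lumbar cord. Its probe set, 1439798_at, read 3723.0, 4626.1 and 3732.8 in L5, 3453.4, 3805.0 and 3415.9 in DL, and 19.7, 5.5 and 10.9 in OMN. The spinal arrays were close to one another in both pools, with an SD of log2 values of 0.18 in L5 and 0.09 in DL, and 1 of 3 OMN arrays was above noise. L5 was at least 214-fold higher than OMN (7.20 ± 0.24 SE, limma adjusted p = 0.000179), and DL at least 189-fold higher (7.02 ± 0.24, adjusted p = 0.000220).

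In the HoxD cluster, where Hoxd8, Hoxd9, Hoxd10 and Hoxd11 follow each other towards the 5′ end, Hoxd11 was called between the spinal pools, as described further on. Promoter windows are shown for Hoxd11, for Hoxd9, whose difference pointed the other way without being called, and for Hoxd10, which lies between them and did not differ by the test. They are given as RefSeq has them on GRCm38.p6, from 250 bases before to 50 after a transcript start, read 5′ to 3′ on the plus strand. Capitals mark matches on either strand to TTTATG (Cdx type), TGATTNAT (Hox with Pbx), AGGTCA (retinoic acid half-site) or TATAAA.
Hoxd11, first start, chr2:74679308-74679607: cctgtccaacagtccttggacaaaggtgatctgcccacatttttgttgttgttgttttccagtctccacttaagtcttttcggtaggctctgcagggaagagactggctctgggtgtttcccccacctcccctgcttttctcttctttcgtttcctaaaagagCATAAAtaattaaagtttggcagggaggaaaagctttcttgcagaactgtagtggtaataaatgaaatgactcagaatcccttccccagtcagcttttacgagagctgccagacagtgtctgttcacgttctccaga
Hoxd11, second start, chr2:74682073-74682372: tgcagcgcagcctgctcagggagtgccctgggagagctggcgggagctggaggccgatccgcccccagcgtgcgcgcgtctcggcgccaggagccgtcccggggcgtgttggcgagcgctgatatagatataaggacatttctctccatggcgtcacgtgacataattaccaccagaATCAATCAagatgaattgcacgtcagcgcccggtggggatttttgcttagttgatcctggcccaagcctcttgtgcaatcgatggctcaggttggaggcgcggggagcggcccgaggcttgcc
Hoxd10, chr2:74691641-74691940: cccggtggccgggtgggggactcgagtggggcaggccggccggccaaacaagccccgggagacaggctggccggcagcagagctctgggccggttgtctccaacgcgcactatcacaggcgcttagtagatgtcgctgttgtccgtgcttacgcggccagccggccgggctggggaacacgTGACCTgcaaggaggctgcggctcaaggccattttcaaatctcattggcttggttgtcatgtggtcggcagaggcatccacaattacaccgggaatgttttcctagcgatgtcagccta
Hoxd9, chr2:74697513-74697812: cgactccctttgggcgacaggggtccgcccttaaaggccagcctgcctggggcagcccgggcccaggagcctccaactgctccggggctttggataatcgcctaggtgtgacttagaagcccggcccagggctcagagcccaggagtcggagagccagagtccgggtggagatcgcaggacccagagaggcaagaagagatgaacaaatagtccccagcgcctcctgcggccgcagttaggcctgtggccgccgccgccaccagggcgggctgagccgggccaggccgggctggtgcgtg

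The Cdx-type letters stood at position -87 of the first Hoxd11 window, counted from the start, and at none of the other 8 member windows, while 11.85% of 32851 windows of all genes hold them. The letters of the Hox-Pbx motif stood at position -73 of the second Hoxd11 window, against 3.221% of all windows. The retinoic acid half-site was found in Hoxd10 at position -69 and in Hoxd8 at position -135, against 16.26% of windows, and TATAAA in 1 of the 2 Hoxa10 windows, against 13.62%. Hoxd9 held none of the 4. CpG pairs numbered 4 in the first and 25 in the second Hoxd11 window, 22 in Hoxd10 and 20 in Hoxd9, where the median of all windows is 7. In all, 7 of the 8 genes had a window. No window held more than 1 marked match, so marks do not overlap. A match describes these letters and does not make a binding site.

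Hoxd8, a homeodomain factor like the others, lies nearest the 3′ end of HoxD among them. Its brighter probe set, 1431099_at, read 884.2, 728.5 and 733.6 in L5, 537.3, 608.0 and 519.9 in DL, and 17.9, 2.9 and 20.7 in OMN. L5 lay wholly above DL, and both lay above OMN, where 1 of 3 arrays passed noise. It was at least 40.8-fold higher in L5 than in OMN (4.79 ± 0.27 SE, limma adjusted p = 0.000765) and in DL by at least 29.0-fold (4.31 ± 0.27, adjusted p = 0.000751). The second Hoxd8 probe set, 1433638_s_at, whose suffix marks probes that can fit transcripts of more than 1 gene, read 222.3, 334.1 and 288.9 in L5, 210.3, 202.7 and 302.1 in DL, and 2.8, 2.1 and 2.6 in OMN. Here L5 and DL overlapped. It was also called higher in L5 than in OMN (3.99 ± 0.22 SE, adjusted p = 0.000765) and in DL than in OMN (3.76 ± 0.22, adjusted p = 0.000658).

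Hoxd9, the HoxD member of the Hox9 paralogs, read 2262.6, 1966.3 and 2107.4 in L5, 738.2, 802.9 and 1370.2 in DL, and 1.0, 2.7 and 0.8 in OMN (1419126_at). The L5 arrays were nearly level and all above the highest DL array. L5 was at least 115-fold higher than OMN (6.93 ± 0.25 SE, limma adjusted p = 0.000179), and DL at least 51.0-fold higher (5.76 ± 0.25, adjusted p = 0.000226).

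Hoxd10 is a Hox10 paralog that, with Hoxa10, is needed for normal hindlimb innervation in the mouse. Its probe set, 1418606_at, read 1288.1, 1486.3 and 1330.5 in L5, 2031.3, 1134.3 and 2238.3 in DL, and 6.1, 0.6 and 1.6 in OMN. The DL arrays lay on both sides of the L5 range. L5 was at least 74.6-fold higher than OMN (6.21 ± 0.27 SE, limma adjusted p = 0.000302), and DL at least 94.4-fold higher (6.55 ± 0.27, adjusted p = 0.000226).

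Hoxd11, the most 5′ gene of the 8 in HoxD, read 492.2, 727.9 and 894.0 in L5, 2004.7, 2283.5 and 1752.9 in DL, and 3.6, 2.4 and 8.8 in OMN (1450584_at). Here the lowest DL array was well above the highest L5 array. L5 was at least 37.4-fold higher than OMN (5.08 ± 0.25 SE, limma adjusted p = 0.000566), and DL at least 109-fold higher (6.60 ± 0.25, adjusted p = 0.000220). The annotated spans of Hoxd10 and Hoxd11 overlap on the same strand in the RefSeq table, so a probe in the shared stretch could read either, which was not checked.

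Between the spinal pools, Hoxd11 was the only one of the 8 genes that differed by the test. It was lower in L5 than in DL, with a mean of 704.7 ± 202 in L5 and 2013.7 ± 265 in DL (SD, n = 3 each), so that the geometric mean of DL was 2.93 times that of L5. The log2 difference, L5 minus DL, was -1.53 ± 0.25 SE (95% interval -2.12 to -0.94, limma adjusted p = 0.0414), and all 3 pairs of equal number ran this way. Of all probe sets, 0.666% were called lower in L5, against 1 of the 11 here, and 0.702% were called higher in L5, against 0 of the 11. At an unadjusted limma p under 0.05, 2 of the 11 differed, as did 7432 of all 45037 probe sets, a similar share. The Hoxd11 call was kept in 7 of 19 other settings, with a difference of -1.82 to -1.31, and was lost in each of the 9 fits that left out 1 array, where adjusted p was 0.0576 to 0.169.

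Hoxd9 leaned the other way without passing the test. It averaged 2112.1 ± 148 in L5 and 970.4 ± 348 in DL (SD, n = 3 each), and the log2 difference was 1.16 ± 0.25 SE (95% interval 0.57 to 1.75, limma adjusted p = 0.0811), higher in L5 in 3 of 3 pairs. Without the replicate block its adjusted p was 0.0388, and it was called in 3 of 19 other settings. On each array the log2 value of Hoxd9 minus that of Hoxd11, a difference looked at after the values had been seen, was 2.16, 1.41 and 1.22 in L5 and -1.42, -1.49 and -0.35 in DL. Both genes were picked because their pools already stood apart in opposite directions, so this is a description and supports neither difference.

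For the other 6 genes L5 and DL did not differ by the test, and the intervals show what sizes the data allow. Hoxa9 gave 0.18 (95% interval -0.31 to 0.67, limma adjusted p = 0.737) with the brighter and 0.70 (-0.43 to 1.83, adjusted p = 0.538) with the dimmer probe set. Hoxa10 gave -0.33 (-0.83 to 0.17, adjusted p = 0.507), and Hoxc10, another Hox10 paralog, gave 0.17 (-0.39 to 0.74, adjusted p = 0.794). Hoxd10, the third Hox10 paralog, gave -0.34 (-0.96 to 0.29, adjusted p = 0.603). Intervals for these Hox10 paralogs thus reach to at most 0.96 on the log2 scale in either direction.

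Hoxd8 had an L5 minus DL difference of 0.48 (-0.14 to 1.11, limma adjusted p = 0.432) with its brighter and 0.23 (-0.29 to 0.75, adjusted p = 0.679) with its other probe set. The Hoxa11 interval was the widest for a brightest probe set, from -0.77 to 1.22 around 0.22 (adjusted p = 0.857). By array ranges, L5 lay wholly above DL for 3 of the 11 probe sets, those of Hoxd8 (1431099_at) and Hoxd9 and the Hoxa10 probe set at noise, where 12.9% of all probe sets did so. It lay wholly below DL for 1, Hoxd11, where 7.88% did. The median L5 minus DL difference was 0.18 over the 11 probe sets and 0.075 over all.

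**Figure D2:**
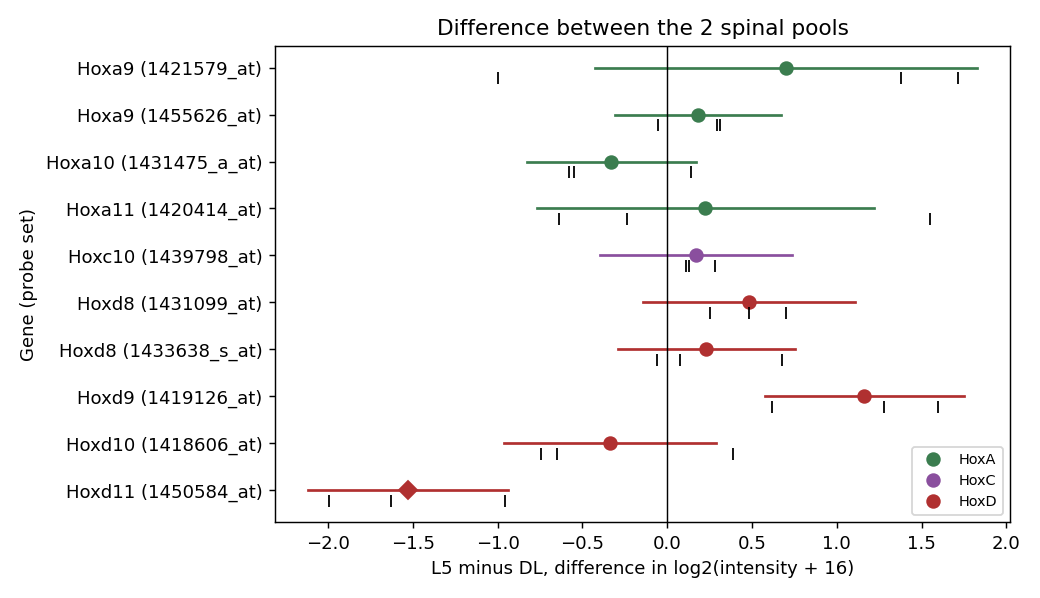
Difference in log2(intensity + 16), L5 minus DL, for 10 probe sets of the 8 genes, without the Hoxa10 probe set at noise, ordered by cluster. Symbols are limma estimates, bars their 95% intervals, the diamond marks an adjusted p under 0.05, and ticks are the 3 pairs of equal sample number. Hoxd11 at -1.53 and Hoxd9 at 1.16 have intervals that leave out 0, and the other intervals cross it.

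Ordered by level, L5 ranked first for Hoxa9, Hoxc10, Hoxd8 and Hoxd9 by mean of the brightest probe set, and DL first for Hoxa10, Hoxa11, Hoxd10 and Hoxd11, with OMN last for each. For Hoxa11 the geometric mean was 874.9 in L5 and 742.1 in DL, the other way round. Only for Hoxd11 did the neighbouring spinal levels differ by the test. Along HoxD the L5 minus DL difference ran from 0.48 and 1.16 at Hoxd8 and Hoxd9 to -0.34 and -1.53 at Hoxd10 and Hoxd11. In HoxA it was 0.18, -0.33 and 0.22 at Hoxa9, Hoxa10 and Hoxa11. Whether the HoxD order differs from that of HoxA was not tested.

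Paralogs of the same group were compared within arrays, as the log2 value of one minus that of the other, so that probe brightness cancels between pools. Hoxa9 minus Hoxd9 was -0.47, -0.23 and -0.43 in L5 and 0.83, 0.73 and 0.24 in DL. The L5 mean was lower by a difference of -0.98, with no overlap. Hoxa11 minus Hoxd11 was 0.52, 0.60 and -0.07 in L5 and -1.24, -0.39 and -2.58 in DL, a difference of 1.75, again with no overlap. For each, the exact two-sided permutation p was 0.1, the smallest that 3 against 3 arrays allow, and 0.25 after adjustment over the 5 pairs examined. Each of these pairs holds Hoxd9 or Hoxd11, whose own pools already stood apart, so it gives no separate support for a difference.

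Among the 3 Hox10 pairs the pools overlapped. Hoxa10 minus Hoxc10 averaged -3.18 ± 0.30 in L5 and -2.68 ± 0.21 in DL (SD, n = 3 each, difference -0.50, exact permutation p = 0.2). Hoxc10 minus Hoxd10 averaged 1.54 ± 0.08 in L5 and 1.03 ± 0.61 in DL (difference 0.51, exact permutation p = 0.4). For Hoxa10 minus Hoxd10 the means were -1.64 ± 0.23 in L5 and -1.65 ± 0.68 in DL (difference 0.0064, exact permutation p = 1). After adjustment over the 5 pairs these p-values were 0.333, 0.5 and 1.

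**Figure D3:**
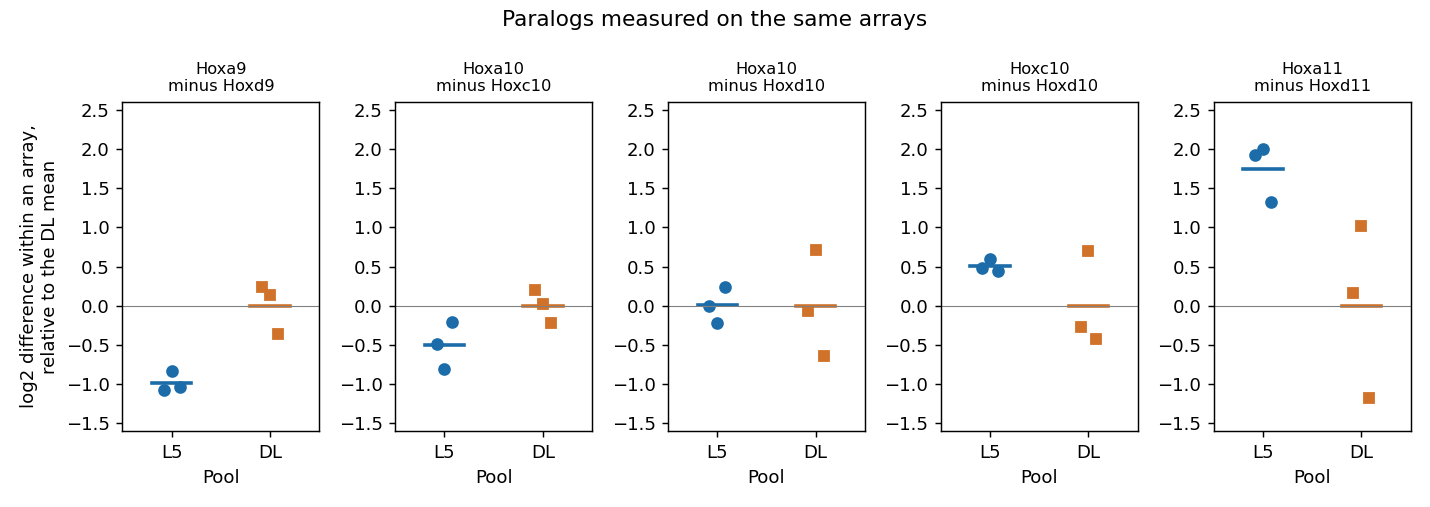
Within-array log2 difference of paralog pairs in L5 (circles) and DL (squares), drawn relative to the DL mean of each pair; points are arrays and lines are means of 3. Hoxa9 minus Hoxd9 lies lower in L5 by 0.98 and Hoxa11 minus Hoxd11 higher in L5 by 1.75, while the Hox10 pairs overlap.

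Arrays of a pool did not agree equally well for each gene. Of the 8 genes, 5 had a larger SD of log2 values in DL than in L5, and the median SD was 0.214 in DL and 0.162 in L5. Over the 12422 probe sets with a mean above 200, the median SD was 0.300 in DL and 0.209 in L5. In DL, Hoxa11 deviated from the pool mean by 0.17, 1.20 and -1.37 on arrays 1, 2 and 3. Hoxd10 deviated by 0.23, -0.60 and 0.37, and Hoxd9 by -0.33, -0.21 and 0.55. Ordered over the 3 DL arrays, 4 of the 8 genes (Hoxa11, Hoxc10, Hoxd8 and Hoxd11) ran opposite to the Gapdh ratio, 1 (Hoxd10) ran with it and 3 did neither, and 3 arrays are too few to test this. Within L5 the widest was Hoxd11, at -0.46, 0.09 and 0.38. When the Gapdh ratio entered the fit, the Hoxa11 difference between L5 and DL turned to -0.60 (limma adjusted p = 0.532), and the Hoxd11 call was lost (-1.82, adjusted p = 0.105).

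**Figure D4:**
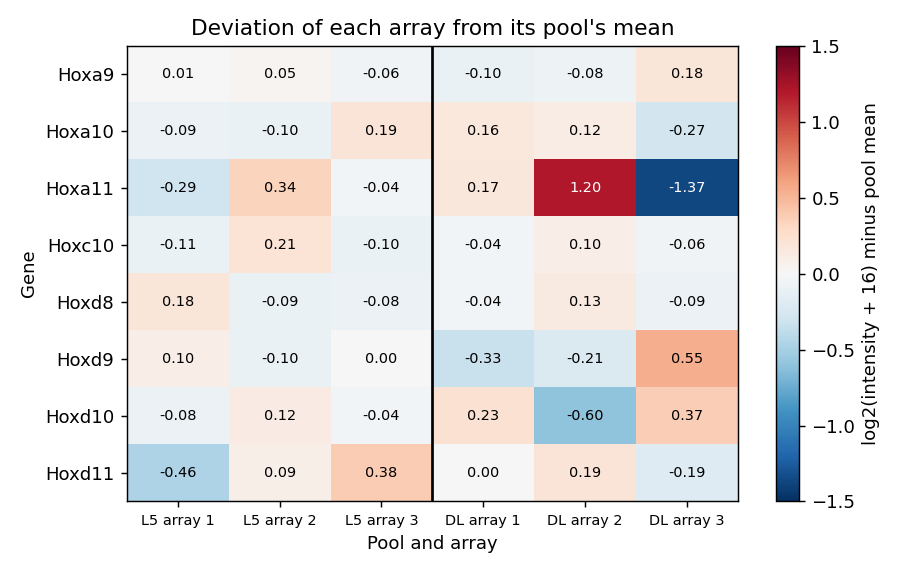
Deviation of each spinal array from the mean of its pool, in log2(intensity + 16), for the brightest probe set of each gene. Blue is below and red above the mean, and the line divides L5 from DL. Hoxa11 spans -1.37 to 1.20 in DL, and Hoxc10 stays within 0.21 of its mean in both pools.

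Over the 9 arrays every pair of the 8 genes correlated at Pearson r of 0.92 to 0.99, where the spinal arrays lie far from the OMN arrays. Over the 6 spinal arrays alone r ran from -0.97 for Hoxa9 with Hoxa10 to 0.91 for Hoxa9 with Hoxd9. Hoxd11 ran against Hoxd9 (-0.91) and Hoxd8 (-0.92) there. Each gene was read by its brightest probe set, and the pair of Hoxd8 probe sets hardly followed each other over these arrays (r = 0.08). These are descriptions of arrays that share their pools and their scaling.

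Some markers of other cells differed between L5 and DL as well, while none of 6 microglia and 4 endothelial markers was called between these pools. Of 7 spinal interneuron markers measured, L5 was lower than DL for 2, Gad1 (-1.89) and Gad2 (-3.04 on the log2 scale), which make GABA. Slc17a6 leaned the other way without being called (1.16, limma adjusted p = 0.0508). The summed intensity of all 7 was 2143.5 to 2757.0 in L5, 5364.0 to 6067.4 in DL and 3347.2 to 4209.1 in OMN. These markers were not confined to the cord, as Slc17a6 and En1 were called higher in OMN than in either spinal pool. Slc6a5 averaged 550.6 in L5, 706.8 in DL and 22.6 in OMN, and was not called between L5 and DL (-0.30, limma adjusted p = 0.701). Among 7 oligodendrocyte markers Cldn11 (-1.16) and Ugt8a (-1.14), both genes of myelin, were lower in L5, with sums of 11820.0 to 12718.5 in L5, 16884.6 to 19272.8 in DL and 9445.7 to 10795.0 in OMN. Of 5 Schwann cell and sensory neuron markers 1 was higher and 2 were lower in L5, with sums of 1919.1 to 2279.6 in L5, 2074.5 to 2976.3 in DL and 200.7 to 264.2 in OMN. This sum hides opposite moves. Pmp22, a myelin gene of Schwann cells, read 1862.9, 2202.1 and 2114.7 in L5, 826.4, 720.4 and 1077.2 in DL, and 94.0, 142.9 and 166.8 in OMN. Pirt, a sensory neuron gene, read 5.4, 26.1 and 14.8 in L5, 670.3, 629.5 and 1348.3 in DL, and 94.7, 2.9 and 10.2 in OMN. Scn11a, a sodium channel of sensory neurons, read 26.4, 14.4 and 18.8 in L5, 609.4, 714.0 and 503.3 in DL, and 49.3, 19.4 and 10.6 in OMN. L5 minus DL was thus 1.24 for Pmp22, -4.80 for Pirt and -4.12 for Scn11a (limma adjusted p = 0.0499, 0.0244 and 0.0045), while Scn10a stayed below noise on each array. The 7 astrocyte markers, of which S100b was higher (1.14) and Gfap lower (-2.14) in L5 than in DL, summed to 15055.3 to 16254.6 in L5, 13370.7 to 15542.1 in DL and 12111.9 to 12773.2 in OMN. Which cells gave these marker signals was not tested, nor was the part of such cells in the Hox differences.

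Of 11 other Hox genes of groups 8 to 13, 8 were measured and 2 were called, Hoxc8 and Hoxc9, both higher in L5 and in DL than in OMN. Hoxc8, which marks brachial and thoracic cord, read 246.8, 316.5 and 429.4 in L5, 94.2, 148.9 and 205.0 in DL, and 3.6, 6.3 and 1.2 in OMN. Hoxc9, which sets the thoracic motor columns, read 116.3, 94.2 and 95.1 in L5, 86.3, 43.8 and 42.7 in DL, and 15.9, 5.1 and 14.5 in OMN. In each, L5 lay wholly above DL, though neither passed the test (1.09 with limma adjusted p = 0.102 for Hoxc8, 0.72 with adjusted p = 0.169 for Hoxc9). The other 6 measured were not called in any comparison, and their pool means lay between 0.667 and 24.9.

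Anterior Hox genes are those of groups 1 to 7, of which 17 were measured. L5 exceeded OMN by the test for 5 of them, and DL exceeded OMN for 3. Each was read by its probe set of highest mean, which for Hoxa3 was 1 of 4. Hoxa3, which patterns the hindbrain and pharynx, was the only anterior gene called between the spinal pools. It read 128.2, 148.5 and 203.7 in L5, 474.0, 687.2 and 561.2 in DL, and 2.8, 3.7 and 2.8 in OMN, so that L5 was lower than DL by a log2 difference of -1.75 ± 0.21 SE (limma adjusted p = 0.0191). Its pools stood in the order of those of Hoxd11, with DL highest and OMN lowest.

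Few of the genes that work with or upstream of Hox factors were called. Among 8 cofactor genes of the Pbx, Meis and Pknox families, which bind DNA beside Hox proteins, Pbx3 was lower in L5 than in OMN (-1.65, limma adjusted p = 0.0201) and in DL than in OMN (-1.39, adjusted p = 0.0259). Pknox2 was higher in DL than in OMN (1.44, adjusted p = 0.0186), and none was called between L5 and DL. Meis2 showed L5 minus DL at 1.74 (adjusted p = 0.0967). None of 7 upstream regulators and none of 10 Polycomb and Trithorax genes, which keep Hox genes silent or active, was called in any comparison.

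Partners and targets of Hox proteins in motor neurons numbered 14. Against OMN, L5 had 2 of them higher and 1 lower, and DL had 5 higher and 0 lower. Against DL, L5 had 1 higher and 2 lower. Foxp1, named beside the smallest p-values as the Hox partner that sorts limb pools, read 706.1, 463.8 and 495.1 in L5, 1039.0, 1098.6 and 2136.0 in DL, and 55.7, 252.2 and 68.4 in OMN. It was called in DL against OMN (3.54, limma adjusted p = 0.0227) and not in L5 against OMN (2.26, adjusted p = 0.121). Both results are of its probe set of highest mean, 1 of 8. Aldh1a2, which makes retinoic acid in limb-level motor neurons, read 2512.5, 2534.6 and 1806.3 in L5, 256.0, 129.9 and 235.2 in DL, and 8.4, 34.5 and 5.3 in OMN. It differed in each comparison, with L5 minus DL at 3.40 (adjusted p = 0.0166). Mnx1, a homeodomain factor of motor neurons, read 155.6, 147.0 and 80.9 in L5, 89.7, 122.5 and 71.3 in DL, and 0.9, 1.4 and 3.0 in OMN. It was higher in L5 than in OMN (2.97, adjusted p = 0.0041) and in DL than in OMN (2.61, adjusted p = 0.0046). Runx1, a transcription factor of some motor pools, was higher in DL than in OMN (3.30, adjusted p = 0.0177) and was not called in L5 against DL (-2.49, adjusted p = 0.0546). Isl1, a LIM factor of motor neurons, was lower in L5 than in DL (-2.16, adjusted p = 0.0129) and in L5 than in OMN (-1.83, adjusted p = 0.0191).

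Profiles over the 9 arrays were ranked by Pearson r among 12786 genes, with the posterior Hox genes studied here left out of the ranking. Most like Hoxc10 were then Glra1 (0.994), Pnoc (0.990), Hoxa5 (0.988), Serpinb6a (0.987) and Sst (0.986). Of the genes left out, Hoxa9 (0.994), Hoxd10 (0.993), Hoxd8 (0.993) and Hoxa10 (0.992) were more like Hoxc10 than Pnoc was. Pnoc and Sst encode the neuropeptide precursors of nociceptin and somatostatin, and Serpinb6a a protease inhibitor. Glra1 encodes a glycine receptor subunit and read 3863.5, 4057.5 and 3225.8 in L5, 2769.9, 2631.2 and 3149.8 in DL, and 244.6, 111.2 and 127.8 in OMN. Most like Hoxd11 in such a ranking were Crtac1 (0.995), Hoxa3 (0.988), Sst (0.978), Pnoc (0.976) and Hoxa5 (0.975). Hoxa10, which was left out, had an r of 0.984 with Hoxd11, above that of Sst. Crtac1, an extracellular matrix protein gene, read 703.9, 872.5 and 898.8 in L5, 1316.7, 1318.0 and 1091.4 in DL, and 234.9, 186.6 and 267.5 in OMN. These r are descriptions over 9 arrays of 3 pools.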

How the data were processed

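The labels describe motor neurons of 3 pools from 3 mice, on 9 arrays. The authors deposited 1 table of linear probe set intensities, made by software not given in the sources used here; from the values, each array had been scaled to 1 trimmed mean, so that a change in many genes would shift the others. Of 45101 probe sets, 64 controls were left out. Symbols came from the platform annotation. Intensities were converted to log2(intensity + 16), which understates changes of dim genes, and fitted over all 45037 probe sets and 9 arrays with limma 3.58.1 in R 4.3.3, with pool and sample number as factors, with Benjamini-Hochberg adjustment of p. The number was kept as a block because each animal gave all 3 pools; deviations of samples of equal number correlated at only -0.0913 to 0.0657 over 12422 probe sets, so the values do not show that numbers pair the samples. The scripts were tested on simulated arrays. Alternatives changed the block, pseudocount, normalization, filter, variance model and arrays. The genes and gene lists were chosen with earlier results of these data known. Each gene is named with its own probe sets, and up to 4 genes are named per list by smallest p. Foxp1 and the individual cell markers were added after their values were seen. The 5 genes most like Hoxc10 and Hoxd11 were named with the posterior Hox genes studied here left out. Promoter windows are RefSeq's, GRCm38.p6; the array's build is not named. The number of arrays limits the precision.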

Additional observations from a re-analysis of the deposited data

How the results depend on the processing

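Calls of the brightest probe set of each gene against OMN were kept in all 19 alternatives, except Hoxa11 in DL, lost with DL and OMN alone in the fit. The L5 minus DL count of 1 became 2 with no replicate block, with a pseudocount of 64 and with trend and robust variances, where Hoxd9 joined Hoxd11, and 0 with a pseudocount of 1, with L5 and DL alone, with the Gapdh covariate, without any 1 array (0 to 0), and, in a setting added after seeing the data, without DL arrays 1 and 3, those of highest Gapdh ratio. There DL minus OMN calls numbered 8 and Hoxd11 stood at -1.76 (limma adjusted p = 0.156). Why the counts changed was not tested.

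Over all probe sets the L5 minus OMN count of 464 became 856 with no replicate block, 52 with a pseudocount of 1, 836 with 64, 1344 with trend and robust variances, 779 with array weights and 82 to 366 without 1 array. For DL minus OMN, 865 became 153 with a pseudocount of 1, 550 with 1 probe set per gene, 80 with DL and OMN alone, 1410 with trend and robust variances, 246 with the Gapdh covariate, 192 to 533 without 1 array and 43 without DL arrays 1 and 3. For L5 minus DL, 616 became 1260 with no replicate block, 4 with a pseudocount of 1, 1305 with 64, 0 with L5 and DL alone, 1698 with trend and robust variances, 8 with the Gapdh covariate, 5 to 228 without 1 array and 0 without DL arrays 1 and 3.

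Centring arrays on the median moved the median of all probe sets to 0.149 for DL minus OMN (522 higher, 319 lower, against 338 and 527) and to -0.094 for L5 minus DL (206 higher, 466 lower, against 316 and 300). Hoxd11 was then -1.70 and Hoxd9 0.99. For DL minus OMN the Hoxa10 probe set at noise turned to -0.038 with the Gapdh covariate, -0.0019 without DL replicate 1, -0.021 without DL replicate 3 and -0.0063 without OMN replicate 2 (-0.021 to 0.050 over all arrays left out) and -0.073 without DL arrays 1 and 3, and for L5 minus DL to -0.083 with centred arrays. With the Gapdh covariate L5 minus DL turned to -0.60 for Hoxa11, -0.011 for Hoxc10 and 0.036 for Hoxd10. Hoxa11 turned to -0.19 without L5 replicate 3, -0.36 without DL replicate 3 (-0.36 to 0.68 over all arrays left out) and -0.69 without DL arrays 1 and 3, where Hoxd10 turned to 0.24. The Hoxa10 minus Hoxd10 difference of 0.0064 turned to -0.0010 with a pseudocount of 1 and spanned -0.32 to 0.36 without 1 array. With the replicate block, an exact sign-flip permutation test over 3 pairs cannot go below p = 0.25.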

Other observations

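Neighbours of the clusters were looked up after the values had been seen. Evx2, the homeobox gene beyond the 5′ end of HoxD, read 2.7, 17.1 and 8.9 in L5, 13.1, 2.7 and 13 in DL, and 27.3, 6.6 and 14.5 in OMN, near noise throughout. Hoxd3os1, an antisense transcript at the 3′ side of HoxD, read 49.2, 49.3 and 100.2 in L5, 13.1, 24.1 and 98.6 in DL, and 1.2, 0.9 and 1.6 in OMN with its brighter probe set. It was called higher in L5 than in OMN (2.20, limma adjusted p = 0.0419) and not in DL (1.57, adjusted p = 0.0845). A probe set shared by Hoxb8 and Hoxb7 read 136.7, 108.2 and 167.4 in L5, 118.4, 10.0 and 457.1 in DL, and 0.6, 4.3 and 5.6 in OMN, and was not called.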
